A study of Mus musculus with 6 samples.

Results

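The genes described here are 10 components of cross-presentation and of the export of antigen out of phagosomes. They were chosen by name as a phagosome recruitment group (Wdfy4, Sec22b and Lnpep), the signalling kinase gene Syk, the Sec61 channel genes Sec61a1, Sec61b and Sec61g, and the ER-associated degradation (ERAD) genes Vcp, Derl1 and Derl2. They stand among 32903 gene symbols in the deposited table, and all 10 had at least 18.4 TPM (transcript abundance per length, scaled so that a library sums to 1000000) in each library used. The RNA came from MuTuDC1940, a line of mouse dendritic cells that resembles the type 1 conventional subset (cDC1), and was captured by its poly(A) tails. The treated cells received poly(I:C), an artificial double-stranded RNA used as a mimic of virus infection, at 5 µg/ml for 18 hours, and the untreated cells received none. The series holds 3 samples of each kind and asks which genes rise with poly(I:C). Because the header of the table leaves 2 of its 6 columns without a settled group, 2 libraries per group are compared: those headed PolyIC01 and PolyIC02 against those headed NT01 and NT02. All of them come from a single cell line, and the labels do not say that samples were separate cultures, so the p-values rest on the spread of these libraries alone, and that spread may be technical.

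Dendritic cells of the cDC1 type are known for cross-presentation, the display of peptides from engulfed material on MHC class I. In the cytosolic route an engulfed antigen leaves the phagosome, is cut by the proteasome and is loaded onto class I either in the endoplasmic reticulum (ER) or back in the phagosome. Phagosomes acquire ER proteins for this purpose, and the ERAD machinery, which normally moves misfolded proteins out of the ER, has been proposed as the exit. Antigen can also escape when the phagosome membrane ruptures, the route named in the title of the series.

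The libraries were alike within groups, with Pearson's r of log2(TPM + 1) of 0.997 across tested genes, against 0.956 to 0.959 between groups; genes are not independent replicates. Between 11504 and 11584 genes reached 1 TPM with poly(I:C) and between 11207 and 11346 without. Sequencing depth is unknown, since TPM does not preserve it. The cDC1 markers Irf8, Id2, Xcr1, Clec9a, Batf3, Cd24a, Cadm1 and Zbtb46 were at 48.4 TPM or more in every library, while Flt3 lay between 5.00 and 9.91 TPM and the integrin gene Itgae between 0.490 and 0.918 TPM. Of 4 T cell genes, Cd3e and Cd3g were listed at 0 in all 4 libraries, Cd8b1 was at most 0.0251 TPM, and Cd3d was at 1.59 and 1.47 TPM with poly(I:C), against 1.01 and 0.678 TPM without.

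The machinery did not move as a block. A change was called at an adjusted p under 0.05 in limma, corrected over all 12520 tested genes. By this rule 2 of the 10 genes rose, Lnpep and Derl1, where 28.4% of all tested genes rose. In the other direction 5 fell, Sec61b, Sec61g, Sec61a1, Syk and Sec22b, where 32.4% of all tested genes fell. Wdfy4, Vcp and Derl2 did not pass. Read against these shares, counts of 2 and 5 among 10 genes are no result about the set, and Lnpep alone moved more than 2-fold. The median log2 fold change of the 10 genes was -0.09, beside -0.015 over all tested genes. Poly(I:C) and untreated values did not overlap for 8 of the 10 genes, and for 81.3% of all tested genes.

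**Figure D1:**
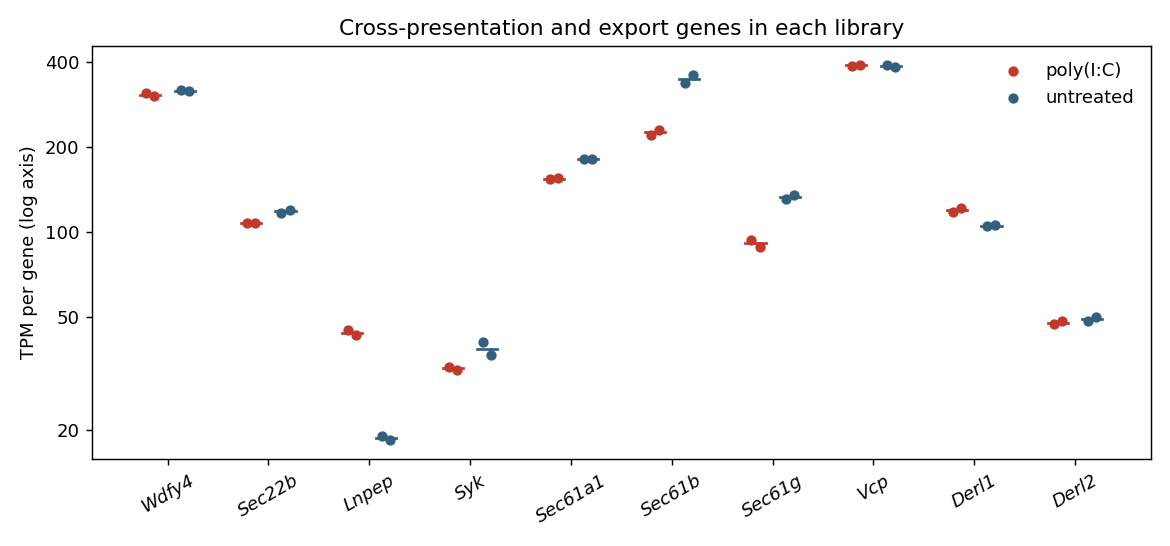
TPM of each of the 10 genes on a log axis, with poly(I:C) libraries in red left of untreated libraries in blue; points are libraries (2 per group) and short lines are group means. The red points of Lnpep lie far above its blue points (44.2 against 18.7 TPM on average), those of the 3 Sec61 genes lie below theirs, and those of Vcp lie among them.

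Levels differed more between genes than between conditions. On the TPM scale Vcp was the most abundant in both groups, ahead of 97.1% of tested genes with poly(I:C) and 97.3% without, and Wdfy4 was ahead of 96.2% and 96.5%. Sec61b held the second place in untreated cells and the third with poly(I:C), behind Wdfy4. Lnpep held the last place in untreated cells, ahead of 51.8% of tested genes, and was ahead of 72.2% with poly(I:C), where Syk was last. No neighbours in either order overlapped between their 2 libraries. The sum over the 10 genes was 1519 and 1520 TPM in PolyIC01 and PolyIC02, and 1688 and 1708 TPM in NT01 and NT02.

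Among the genes of phagosome recruitment, Lnpep rose. It encodes IRAP, an aminopeptidase of a storage endosome that is known to be recruited to phagosomes in dendritic cells and to trim peptides there. Lnpep was at 45.1 and 43.3 TPM with poly(I:C), against 19.1 and 18.4 TPM in untreated cells, so the groups were far apart relative to the distance between libraries. Its mean was 44.2 ± 1.25 TPM with poly(I:C) and 18.7 ± 0.459 TPM without (SD, n = 2 libraries each), a 2.36-fold ratio. On the log2(TPM + 1) scale the change was 1.19 (SE 0.0477, 95% interval 1.08 to 1.31, adjusted p = 1.61e-05 in limma). All of its TPM lie on 1 curated transcript, and the gene is on chromosome 17 at 17527723 to 17624489 (GRCm38, RefSeq). Without any 1 of the 4 libraries the change stayed between 1.17 and 1.22.

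Promoter windows from RefSeq (GRCm38.p6) were at hand for 8 of the 10 genes, in 10 windows, and Derl1 and Sec61a1 had none. Each window ran from 250 bases before a start of the gene to 50 after it, and that start was not always the outermost. Those of Lnpep, which rose most, of Sec61b and Sec61g, which fell most, and of Vcp, which held its level, are shown 5′ to 3′ because these genes mark the extremes of the response. Capitals mark matches on either strand to 5 motifs: the interferon-stimulated response element (GAAA, any 2 bases, GAAA), the STAT motif (TTC, any 3 bases, GAA), the CCAAT box (CCAAT), the unfolded protein response element (TGACGTGG) and the ER stress element (CCAAT, any 9 bases, CCACG). The ER stress element contains the letters of the CCAAT box. The windows of Lnpep and Sec61b hold no match and are all in lower case.
Lnpep, chr17:17624440-17624739, minus strand: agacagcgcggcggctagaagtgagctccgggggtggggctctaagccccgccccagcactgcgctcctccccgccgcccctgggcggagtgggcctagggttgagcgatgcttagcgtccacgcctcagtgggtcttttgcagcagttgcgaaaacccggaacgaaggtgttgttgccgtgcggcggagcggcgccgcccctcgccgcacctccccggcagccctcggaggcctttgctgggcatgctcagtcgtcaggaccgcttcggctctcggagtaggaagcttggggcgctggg
Sec61b, chr4:47474411-47474710, plus strand: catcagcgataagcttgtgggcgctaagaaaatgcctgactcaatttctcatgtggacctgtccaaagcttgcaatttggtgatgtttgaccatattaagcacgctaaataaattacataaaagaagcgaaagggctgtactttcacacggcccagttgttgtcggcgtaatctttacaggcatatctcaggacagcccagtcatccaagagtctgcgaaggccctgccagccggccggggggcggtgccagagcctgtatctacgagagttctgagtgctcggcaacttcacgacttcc
Sec61g, chr11:16508435-16508734, minus strand: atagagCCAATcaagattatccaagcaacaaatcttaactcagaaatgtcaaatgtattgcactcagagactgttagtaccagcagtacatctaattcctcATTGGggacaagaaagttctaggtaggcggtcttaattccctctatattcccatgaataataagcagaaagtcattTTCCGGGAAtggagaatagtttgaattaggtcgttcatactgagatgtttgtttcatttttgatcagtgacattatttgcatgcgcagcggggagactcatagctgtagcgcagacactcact
Vcp, chr4:43000458-43000757, minus strand: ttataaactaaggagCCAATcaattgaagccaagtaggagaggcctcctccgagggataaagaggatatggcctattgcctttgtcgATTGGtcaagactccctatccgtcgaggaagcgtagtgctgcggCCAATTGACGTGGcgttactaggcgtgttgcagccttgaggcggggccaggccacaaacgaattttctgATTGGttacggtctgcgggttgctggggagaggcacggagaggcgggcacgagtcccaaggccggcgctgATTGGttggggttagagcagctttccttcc

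The interferon-stimulated response element was in none of the 10 windows of these genes and in 3.44% of the 32851 windows of the whole table. The ER stress element was in none of the 10 windows either, and in 0.119% of all windows. The unfolded protein response element was in the window of Vcp, with its first base at -114 from the start, and in 0.676% of all windows; it touches a CCAAT box that begins at -119. CCAAT boxes were in 5 of the 10 windows (those of Sec22b, Wdfy4, Sec61g, Vcp and one of the pair for Derl2) and in 37.4% of all windows. The window of Vcp held 5 of them, and so did that window of Derl2. The STAT motif was in the window of Sec61g at -73 and in 8.3% of all windows. The windows of Wdfy4 and Syk, and the window of Derl2 that holds CCAAT boxes, lie within the gene's span. A motif missing from them says nothing about the outermost start of the gene. A match describes letters in a short window and shows no binding.

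Wdfy4 encodes a large BEACH domain protein that cDC1 need to cross-present antigen from cells. It was at 311 and 302 TPM with poly(I:C), against 318 and 315 TPM in untreated cells, and the gap between the groups was smaller than the distance between the treated libraries. The log2 fold change was -0.047 (95% interval -0.11 to 0.018, adjusted p = 0.171 in limma), an interval that spans a small fall and no change. Of 6 transcripts, 5 are predicted, and 1 of these carried 78.3% and 75.7% of the gene's TPM with poly(I:C), and 75.6% and 75.3% without. The curated transcript carried 2.60% to 3.83% in the 4 libraries. On that transcript alone the log2 fold change was 0.12 (SE 0.177, adjusted p = 0.594), and neither version passed. The gene lies on chromosome 14 at 32959547 to 33193855, and its span overlaps that of Lrrc18, which had at most 1.65 TPM in any library.

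Sec22b encodes a SNARE protein of the ER-Golgi intermediate compartment that has been linked to the delivery of ER proteins to phagosomes, a role that is debated. It was at 108 and 108 TPM with poly(I:C), against 117 and 120 TPM in untreated cells, a small fall without overlap. The log2 fold change was -0.14 (SE 0.0282, adjusted p = 0.00803 in limma), and mean TPM fell by 9.19%. When the libraries were rescaled by their median ratio the change was -0.12 and the call was lost (adjusted p = 0.0531). Sec22b is on chromosome 3 at 97901227 to 97922318.

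The kinase gene Syk fell slightly. SYK is recruited by receptors with tyrosine-based activation motifs, among them CLEC9A, the cDC1 receptor for actin exposed on dead cells, and it is known to signal for damage to the phagosome that lets antigen out. Syk was at 33.3 and 32.7 TPM with poly(I:C), against 40.9 and 36.7 TPM in untreated cells. The groups did not overlap, but the untreated libraries differed from each other about as much as the lower of them differed from the treated ones. The log2 fold change was -0.22 (SE 0.0608, adjusted p = 0.0224 in limma). The call rests on the full set of libraries: the adjusted p was 0.0597 without NT01, 0.0566 without PolyIC01 and 0.0764 without PolyIC02, while without NT02 it was 0.00296. The gene is on chromosome 13 at 52582610 to 52648792. Of its 6 transcripts, 1 curated form held 79.8% and 82.2% of the TPM with poly(I:C), and 76.7% and 82.3% without.

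**Figure D2:**
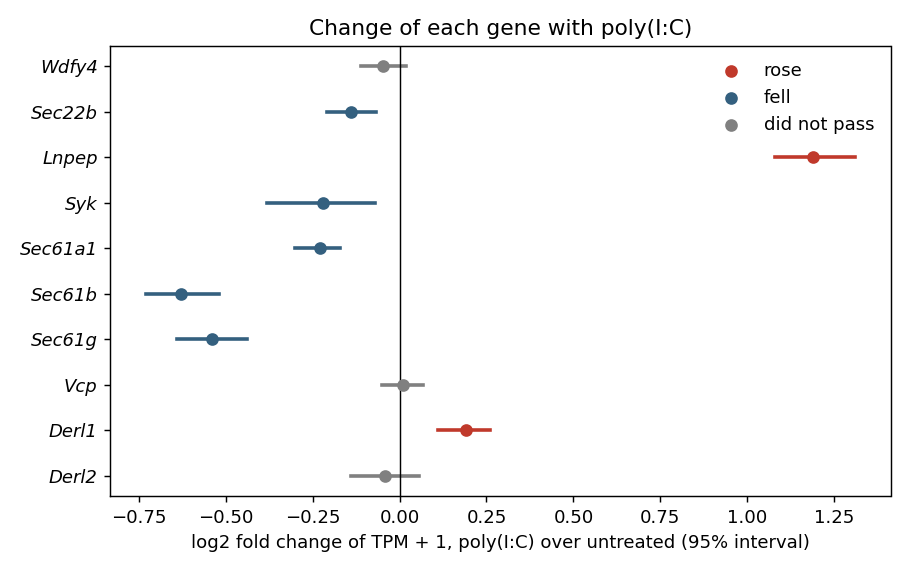
Log2 fold change of TPM + 1 for each of the 10 genes, poly(I:C) over untreated, with 95% intervals from limma (2 libraries per group); red genes rose, blue genes fell and grey genes did not pass. Lnpep stands alone at 1.19, Sec61b and Sec61g lie at -0.63 and -0.54, and the interval of Vcp spans -0.051 to 0.068.

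The 3 subunit genes of the Sec61 channel all fell. Sec61 is the pore through which new proteins enter the ER; the alpha subunit forms the pore and the beta and gamma subunits are small proteins attached to it, and the channel has been proposed to let antigen out of phagosomes. Sec61b was at 221 and 230 TPM with poly(I:C), against 337 and 361 TPM in untreated cells. Sec61g was at 94.0 and 88.5 TPM with poly(I:C), against 131 and 135 TPM without. Sec61a1 was at 154 and 155 TPM with poly(I:C), against 181 and 182 TPM without. In each of the 3 genes both treated libraries lay below both untreated ones, by more than the distance between libraries of a group.

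The fall was deepest for Sec61b, at -0.63 on the log2(TPM + 1) scale (SE 0.0414, adjusted p = 9.24e-05 in limma), with a mean of 226 ± 6.79 TPM with poly(I:C) and 349 ± 16.5 TPM without (SD, n = 2 libraries each). Sec61g changed by -0.54 (SE 0.0400, adjusted p = 0.000145) and Sec61a1 by -0.23 (SE 0.0252, adjusted p = 0.000621). The 95% interval of Sec61a1, -0.30 to -0.17, does not meet those of Sec61b, -0.73 to -0.52, and Sec61g, -0.64 to -0.44; the differences between the genes were not tested. The subunit mRNAs stood in other proportions: there were 1.43 and 1.49 Sec61b transcripts per Sec61a1 transcript with poly(I:C), against 1.87 and 1.98 in untreated cells. For Sec61g the ratio to Sec61a1 was 0.611 and 0.573 with poly(I:C), against 0.723 and 0.741 without. The ratio of Sec61b to Sec61g overlapped between groups, at 2.35 and 2.60 with poly(I:C) and 2.58 and 2.67 without. The 3 genes together had 468.6 and 473.3 TPM with poly(I:C), against 649.2 and 678.2 TPM without.

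Transcript length was set beside this result. Sec61b (564 bases, GENCODE M21) and Sec61g (779 bases) are short, while Sec61a1 has 3172 bases and Lnpep 12052. Of the other genes among the 10, Syk (5363 bases) and Sec22b (2810) fell and Derl1 (3175) rose. Wdfy4 (9681), Vcp (3316) and Derl2 (3666) did not pass. Among the 14 channel partners described below, the deepest falls were in Ssr4 (800 bases, -0.80), Spcs3 (3466, -0.71) and Ssr1 (9333, -0.69). Ssr1 was named after its values were seen. Of 876 tested genes with a transcript under 1000 bases, 43.5% fell and 20.9% rose, and the median log2 change was -0.16. Of 3467 tested genes with 4000 bases or more, 28.5% fell and 30.3% rose, with a median of 0.011. The falls of Sec61b and Sec61g were deeper than the median of their length class, and the part of length in them was not tested. The genes lie on chromosome 4 at 47474661 to 47483233 (Sec61b), chromosome 11 at 16501638 to 16508484 (Sec61g) and chromosome 6 at 88503607 to 88518800 (Sec61a1). Short genes often have processed copies elsewhere in the genome, and the labels do not say how such reads were assigned.

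A list of 14 genes that work beside the channel, all of them tested, held 11 that fell and 3 that rose, and its median log2 change was -0.33, beside -0.015 over all tested genes, of which 32.4% fell and 28.4% rose. The list's summed level was 2820 and 2810 TPM with poly(I:C), against 2830 and 2790 TPM without. The deepest falls were in Ssr4, a subunit of the translocon-associated complex, at 106 and 114 TPM with poly(I:C) against 192 and 192 TPM without (-0.80), and in Spcs3, a subunit of the signal peptidase that cuts off signal sequences, at 127 and 123 TPM against 202 and 209 TPM (-0.71). The largest rises were in Sec61a2, the second alpha subunit gene (0.31), and in Hspa5, the ER chaperone BiP that also gates the channel (0.27). Srpr, a receptor subunit for the signal recognition particle, was the other gene that rose (0.16, named after its values were seen). Hspa5 was by far the most abundant of them, at 1840 and 1840 TPM with poly(I:C) against 1540 and 1500 TPM in untreated cells. Sec61a2 was low, at 10.9 and 10.4 TPM against 9.03 and 7.83 TPM, and its call was lost without NT02, PolyIC01 or PolyIC02 (adjusted p = 0.0658, 0.0980 and 0.0557 in limma) and on curated transcripts alone, where its change was 0.0048. Without 1 library, 9 to 10 genes of the list fell.

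**Figure D3:**
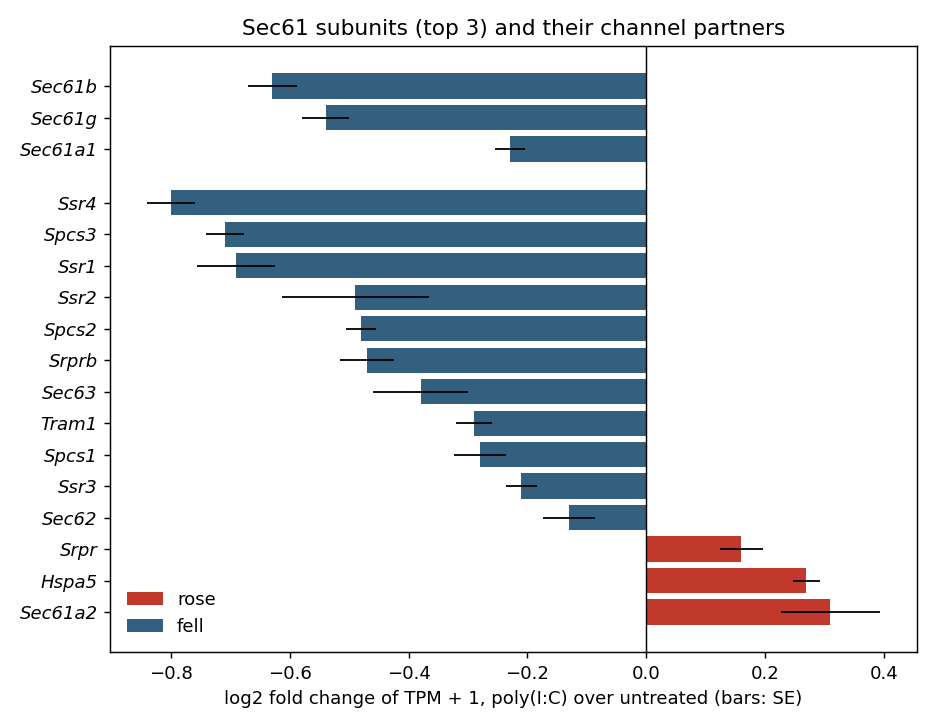
Log2 fold change of TPM + 1, poly(I:C) over untreated, for the 3 Sec61 subunit genes (upper block) and 14 genes that work with the channel (lower block); bars are coloured red where the gene rose and blue where it fell, and lines are standard errors. All 3 subunits and 11 of the 14 partners point to the left, and Srpr, Hspa5 and Sec61a2 point to the right.

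Of the 3 ERAD genes among the 10, Derl1 rose, and Vcp and Derl2 did not pass. Vcp encodes p97, the ATPase that pulls proteins across the ER membrane into the cytosol, and it is used in many other processes. It was at 388 and 391 TPM with poly(I:C), against 390 and 384 TPM in untreated cells, and the groups overlapped. The log2 fold change was 0.0085 with a 95% interval of -0.051 to 0.068 (adjusted p = 0.777 in limma). This interval rests on the spread of 2 libraries per group, which may be technical, and sets no bound beyond these libraries. All of its TPM lie on 1 curated transcript, on chromosome 4 at 42979964 to 43000507.

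Derl1 rose and Derl2 did not pass, though both encode derlins, membrane proteins that thin the ER membrane for export and bind p97. Derl1 was at 118 and 122 TPM with poly(I:C), against 105 and 106 TPM in untreated cells. The log2 fold change of Derl1 was 0.19 (SE 0.0294, adjusted p = 0.00296 in limma), a rise of mean TPM by 13.8%, and it passed under all 10 alternative settings. Derl2 was at 47.3 and 48.5 TPM with poly(I:C), against 48.5 and 50.3 TPM without, and the groups overlapped. Its log2 fold change was -0.043 (95% interval -0.14 to 0.057, adjusted p = 0.389). There were 2.50 and 2.51 Derl1 transcripts per Derl2 transcript with poly(I:C), against 2.17 and 2.10 without. That the derlins differ in their response was not tested, but their intervals, 0.11 to 0.26 for Derl1 and -0.14 to 0.057 for Derl2, do not meet.

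Derl2 has 5 transcripts, and some of them differed between groups although the sum did not pass. A curated form was at 6.51 and 6.66 TPM with poly(I:C), against 4.43 and 4.26 TPM in untreated cells, and another was at 6.01 and 5.49 TPM with poly(I:C), against 8.98 and 8.48 TPM without. The most abundant form was at 22.3 and 23.9 TPM with poly(I:C), against 22.3 and 21.8 TPM without. These transcripts were chosen after their values were seen, have no test, and share most of their sequence, so the split between them is uncertain. The span of Derl2, on chromosome 11 at 71007440 to 71019841, overlaps that of Mis12, which was at 34.0 and 33.4 TPM with poly(I:C) against 46.9 and 44.2 TPM without. Derl1 has 1 transcript and lies on chromosome 15 at 57869502 to 57892418.

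Around these genes, the ERAD list of 35 tested genes held 12 that rose and 6 that fell, while 17 did not pass, at a median log2 fold change of 0.04. Over all tested genes 28.4% rose and 32.4% fell. Without PolyIC01 only 7 rose, and without each of the other libraries 8 to 10 did. The largest rise was in Herpud1, a scaffold of the ERAD ligase and a known target of the unfolded protein response, at 433 and 436 TPM with poly(I:C) against 215 and 202 TPM in untreated cells (1.05, adjusted p = 8.92e-06 in limma). Vcpip1, a deubiquitinase that binds p97, came next at 38.4 and 36.3 TPM against 24.2 and 23.4 TPM (0.63). The deepest fall was in Derl3, the third derlin gene, at 4.11 and 2.21 TPM with poly(I:C) against 8.23 and 6.63 TPM without (-1.05). The call for Derl3 was lost without NT01 (adjusted p = 0.189) and without NT02 (adjusted p = 0.136). The p97 cofactor genes Ufd1 and Nploc4 were among those that did not pass, and were named after their values were seen.

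Genes that feed into Syk or act below it were taken as a list. It was not divided into genes that promote and genes that restrain signalling, so its counts give no direction for the pathway. There were 20 rises and 2 falls among 26 tested genes, and the median log2 fold change was 0.56. Over all tested genes 28.4% rose, 32.4% fell and the median was -0.015. Among the rises, Clec4n, Src, Blnk and Fcgr1 averaged 0.306, 0.25, 0.426 and 0.327 TPM in untreated cells (named after their values were seen). These levels are under the filter of 0.5 TPM, so the genes could be tested only with a higher treated level and could not have counted as falls. The largest rises were in the beta-glucan receptor gene Clec7a, at 72.0 and 70.0 TPM with poly(I:C) against 11.9 and 12.2 TPM in untreated cells (2.46), and in the Fc receptor gene Fcgr4, at 106 and 103 TPM against 22.5 and 23.8 TPM (2.13). The kinase gene Btk (-0.13) and the phospholipase gene Plcg2 (-0.099) were the 2 that fell. Neither call held without NT01, PolyIC01 or PolyIC02, where the adjusted p in limma lay between 0.0560 and 0.147, and that of Plcg2 was also lost without NT02 (adjusted p = 0.0507). Of the 10 tested cDC1 markers, which share Clec9a with the Syk list, 5 rose and 3 fell, at a median log2 fold change of 0.01. The falls were in Cd24a (-1.42), Flt3 (-0.74) and Batf3 (-0.30), and the largest rise was in Xcr1 (0.78). Markers of other cell types differed in direction. Of 8 tested macrophage and monocyte markers, among 10 listed, 6 rose and 1 fell. The sum of the list was 541 and 566 TPM with poly(I:C) against 321 and 317 TPM without. Lyz2 fell, at 98.9 and 107 TPM with poly(I:C) against 218 and 217 TPM without (-1.07). The rises included C1qa (2.18), C1qb (3.24) and C1qc (1.88). Of these markers Csf1r was listed at 0 in both treated libraries and at 0.272 and 0.469 TPM in the untreated ones, and Fcgr1 is in both lists. Of 3 tested cDC2 markers, among 4 listed, 2 rose, and the list summed to 38.3 and 37.5 TPM with poly(I:C), against 7.17 and 7.01 TPM without; Cd209a was listed at 0 in all 4 libraries. Of 4 tested plasmacytoid dendritic cell markers, among 5 listed, 2 rose and 1 fell. Most of that list's sum was Bst2, at 1280 and 1250 TPM with poly(I:C), against 175 and 179 TPM without, while Siglech was at most 0.494 TPM. The tested B cell marker, Ms4a1, rose, at 6.74 and 5.76 TPM with poly(I:C), against 3.18 and 3.58 TPM without. The tested T cell marker, Cd3d, also rose (log2 fold change 0.47, adjusted p = 0.0187 by limma). Both tested epithelial markers fell, and that list summed to 7.74 and 7.80 TPM with poly(I:C), against 10.3 and 11.6 TPM without. Some of these marker calls, named after their values were seen, had 1 group under the filter of 0.5 TPM. Sirpa (cDC2), Pacsin1 (plasmacytoid) and Fcgr1 averaged 0.183, 0.36 and 0.327 TPM in untreated cells. They could be tested only with a higher treated level. Cdh1 (epithelial) averaged 0.387 TPM with poly(I:C), so it could be tested only with a higher untreated level. The part of other cell types in the result was not tested. In bulk RNA a change in cell make-up and a change in RNA per cell cannot be told apart.

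SNARE and Rab genes linked to phagosome traffic were set beside all tested genes, of which 28.4% rose and 32.4% fell: the 20 that could be tested gave 6 rises and 9 falls, and their median log2 fold change was -0.11. Igtp, an interferon-inducible GTPase gene linked to cross-presentation through lipid bodies, was at 59.7 and 59.2 TPM with poly(I:C) against 16.5 and 16.4 TPM in untreated cells (1.79). The next rise was in Stx4a, a plasma membrane syntaxin gene whose product is a partner of SEC22B on phagosomes, at 141 and 139 TPM against 99.4 and 96.7 TPM (0.51). Rab27a, which in dendritic cells is known to bring the NADPH oxidase to phagosomes, was at 7.53 and 6.66 TPM with poly(I:C) against 10.8 and 11.0 TPM without (-0.55), and Rab11b, of recycling endosomes, at 70.5 and 69.5 TPM against 87.1 and 87.1 TPM (-0.31). The rise of Stx4a stood beside a small fall of Sec22b.

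Other than Lnpep, 10 peptidase genes were tested; 3 of them rose and 5 fell, where 28.4% and 32.4% of all tested genes did, and the median log2 fold change was -0.09. Lap3, a cytosolic leucine aminopeptidase gene known to respond to interferon, was at 164 and 160 TPM with poly(I:C) against 70.1 and 69.7 TPM in untreated cells, and its log2 fold change of 1.20 was close to that of Lnpep. Npepps, the puromycin-sensitive aminopeptidase gene, was at 52.9 and 47.7 TPM against 40.7 and 39.6 TPM (0.32). The deepest falls were in Nrd1, the gene of nardilysin, at 7.73 and 10.7 TPM with poly(I:C) against 17.1 and 14.3 TPM without (-0.72), and in Thop1, a cytosolic peptidase gene, at 14.5 and 15.7 TPM against 25.3 and 24.1 TPM (-0.68). The call for Nrd1 was lost without NT01 (adjusted p = 0.126 in limma) and without NT02 (adjusted p = 0.0709), and 3 peptidases fell without NT01.

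The relatives of Wdfy4 with a BEACH domain were far less abundant than Wdfy4. Among 7 tested relatives 3 rose and 2 fell, where 28.4% and 32.4% of all tested genes did, at a median log2 fold change of 0.09. On curated transcripts alone 1 rose, Wdr81 (0.33), and Lyst and Nbeal1 had no result in that setting. Lyst, which controls the size of lysosomes, was at 13.7 and 12.5 TPM with poly(I:C) against 8.71 and 8.13 TPM in untreated cells (0.58). Nbeal1 (0.43) and Wdr81 (0.28) also rose. Nbeal2 was at 13.3 and 12.8 TPM against 22.2 and 20.4 TPM (-0.66), and Nsmaf, at 71.7 and 69.2 TPM against 83.6 and 82.1 TPM, was the most abundant of them (-0.23). Wdfy3, another gene of this group, was at 35.2 and 33.1 TPM with poly(I:C) against 36.7 and 35.6 TPM (-0.082), and Lrba at 16.7 and 16.5 TPM against 15.5 and 15.5 TPM (0.093); neither passed.

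**Figure D4:**
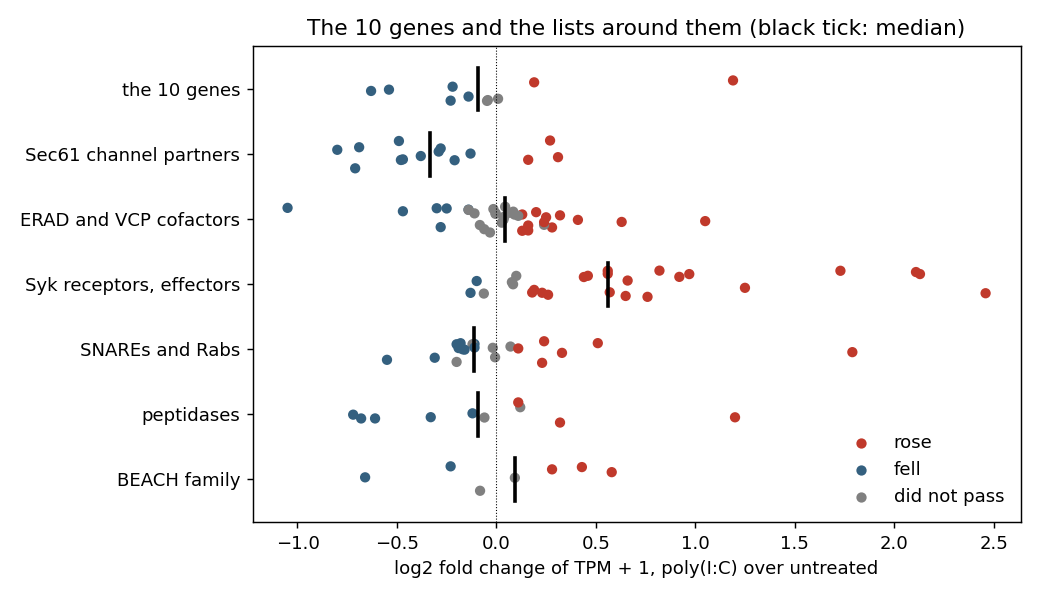
Log2 fold change of TPM + 1, poly(I:C) over untreated, for each tested gene of the 10 and of 6 lists around them; points are genes (red rose, blue fell, grey did not pass), black ticks are medians and vertical scatter is for legibility. The Sec61 partners lie mostly left of 0 (median -0.33), the Syk receptors and effectors mostly right (median 0.56), and the other lists spread to both sides.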

How the data were processed

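Polyadenylated RNA was sequenced from stranded libraries, per the labels' protocols, and GRCm38 is the build in the submitters' processing notes, which also list kallisto 0.42.4 and bcl2fastq 2.20.0.422 without saying what each did. Although called FPKM, the deposited values sum to 1000000 in each column used and were read as TPM per RefSeq transcript. Use of strand in the authors' quantification is not stated.

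A blank cell follows NT01 in the header, which leaves 5 names for 6 value columns. Whichever way the names are shifted, NT01 and NT02 stay untreated and PolyIC01 and PolyIC02 stay treated, so these 4 were used. The remaining 2 columns took no part in any step, and only the replicate number of NT01 is settled.

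Of 107384 transcripts, 86722 (80.8%) were paired with a RefSeq symbol (GRCm38.p6) through their unversioned accession, holding 91.8% to 92.2% of each library's TPM. They were summed per gene. The 12520 genes that averaged 0.5 TPM or more were compared on log2(TPM + 1), which understates changes of low genes, with limma 3.58.1 in R 4.3.3 (trend and robust moderation, 2 residual degrees of freedom, Benjamini-Hochberg adjustment). With 2 libraries a group, the smallest p of an exact permutation test is 0.333. The fit was tested on simulated data with known changes. It recovered 50 of 50 genes at each log2 change of 0.5, 1.0, 2.0 and -1.0, and made 18 false calls in a set of 12133 genes. No change smaller than 0.5 in size was simulated. The recovery therefore does not cover changes as small as those called for Sec22b, Derl1, Syk and Sec61a1. Such data cannot show whether the spread of the real libraries is technical. Plots were drawn with matplotlib 3.10.9, and tables made in pandas 2.3.3 under Python 3.11.15.

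The 10 genes, the 6 lists of 118 pathway genes and the 7 marker lists were chosen with earlier results of these data known. The text names all 10 genes, every tested BEACH gene and, from each other list, up to 2 passing genes with the largest rise and up to 2 with the deepest fall; a gene this rule names is not reported here. Transcript lengths are the longest GENCODE M21 transcript linked to a RefSeq accession, found for 92.8% of tested genes.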

Additional observations from a re-analysis of the deposited data

How the results depend on the processing

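Alternatives were a pseudocount of 0.1 TPM, no filter on low values, limma without trend and robust moderation, curated transcripts only, rescaling by the median ratio, leaving out each library and a replicate block. Over these 10 settings the 2 rises among the 10 genes held as a count, and 4 to 5 fell. Syk kept its direction but lost its call without the filter (-0.22, adjusted p = 0.0562 in limma), and spanned -0.30 to -0.15 with 1 library left out. Sec22b lost its call under rescaling (-0.12, adjusted p = 0.0531), whose factors differed by -0.017 on the log2 scale between poly(I:C) and untreated libraries. Wdfy4 and Vcp never passed; their estimates, which no test told apart from 0, changed sign on curated transcripts (0.12) and without NT02 (-0.0023, range with 1 library left out -0.0023 to 0.019). The 2 falls among Syk receptors and effectors became 1 without the filter, without trend and robust moderation, on curated transcripts and under rescaling, and 0 to 1 with 1 library left out. Left-out libraries gave 7 to 10 rises in the ERAD list and 3 to 5 falls among peptidases, and curated transcripts gave 1 rise in the BEACH family. Lyst and Nbeal1 of the BEACH family had no result on curated transcripts, so their rises were untested there, not lost. Where calls were lost the cause was not tested, and some of the settings used fewer libraries or transcripts.

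The replicate block used the numbers in the headings, which are not settled. The deviations of same-numbered libraries from their group means correlated at 0.022 across genes. Because the numbers are not settled, this value cannot show whether samples were paired or shared a batch. With the block 2 of the 10 genes rose and 5 fell, and 3780 of all tested genes rose and 4277 fell, against 3556 and 4062 without it.

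Depth is unknown, so differences of a few percent, such as those of Wdfy4, Vcp and Derl2, cannot be set against counting error.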
